A study of Mus musculus with 2 samples.

Results

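Values are given here for 10 genes that encode forkhead transcription factors, Foxj1 and 9 others known from lung development or as close relatives of Foxj1, out of 27592 gene names represented on the array. The 10 genes were taken by name: a probe counted when its gene name, or the current symbol of its transcript, was one of the 10. This gave 16 probes, of which 13 were well above background in both channels, 2 (for Foxj3 and Foxp4) in the homozygous channel only and 1 (for Foxj3) in neither. The 15 probes well above background in at least 1 channel were used, and they cover all 10 genes.

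The RNA came from lobes of the lungs of 2 embryos that carried the Foxj1lacZ allele, 1 in heterozygous and 1 in homozygous form. Both were male littermates at E16.5 on an Sv129/CD-1 hybrid background, and the heterozygous control therefore carried 1 copy of the mutant allele. No lung free of that allele was part of the comparison. The lobes were freed of surrounding tissue and used whole, although the source names call the material epithelium. The heterozygous RNA was labelled with Cy3 (green) and the homozygous RNA with Cy5 (red), and both were hybridised to 1 array without a dye swap, so genotype, embryo and dye cannot be told apart. With 1 lung per genotype no test was possible and no p-value is given. Each ratio is the log2 of the homozygous over the heterozygous signal, and ± gives the error that the scanner software attaches to that log2 ratio, which does not cover the difference between animals. Differences are described by a size rule of 2-fold, which is 1 unit of log2 in either direction.

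Forkhead proteins bind DNA through a shared winged-helix domain and act as activators, repressors or openers of chromatin. Foxj1 is the regulator that switches on the genes of the motile cilium in multiciliated airway cells. Foxa1 and Foxa2 act in the lung endoderm and its epithelium, Foxp1, Foxp2 and Foxp4 repress epithelial genes there, Foxm1 drives genes of mitosis, and Foxf2 belongs to the mesenchyme, where hedgehog signals from the epithelium induce Foxf genes. Foxj2 and Foxj3 are relatives of Foxj1 that are not restricted to ciliated cells.

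Each value comes from oligonucleotides of 60 bases printed on the array, and the sequences below are shown because they say which stretch of each transcript was read. The single Foxj1 probe lies at chr11:116146990-116147049 of the mm8 build on the minus strand. In bases 13 to 42 of the probe, stop codons (capitals) stand in all 3 reading frames, so the probed stretch cannot be wholly coding sequence. The same holds for bases 14 to 43 of the Foxa2 probe at chr2:147734403-147734462, also on the minus strand. The last 30 bases of the Foxm1 probe at chr6:128340384-128340443, on the plus strand, hold the polyadenylation signal AATAAA (capitals).
Foxj1: aTAGTGAatgTAGttaTAGcTAAgactTAA
Foxa2: ggTGAaatccaggtctcgggtcTGAttTAA
Foxm1: acactactgtaactacctactaAATAAAgc

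Stop codons (TAA, TAG or TGA, on the printed strand) stood in all 3 frames in 4 of the 16 forkhead probes and in 21.8% of all 41167 probes. The signal AATAAA or ATTAAA, on the printed strand, was found in 1 of the 16 and in 7.49% of all probes. The longest run of bases that a forkhead probe shared with a probe for another gene was 13 to 15 bases, and it was 13 for Foxj1. GC content ran from 25.0% to 55.0% over the 16 probes, with 41.7% for Foxj1.

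Probes of 3 members, 1 each for Foxp1, Foxp2 and Foxp4, cover far more genome than their 60 bases, and so lie across an intron. They span 4338 bases for Foxp1 (chr6:98900851-98905188), 1172 for Foxp2 (chr6:15363873-15365044) and 1498 for Foxp4 (chr17:47332972-47334469). The Foxp2 and Foxp4 probes of this kind resemble each other. Aligned without gaps they were identical at 44 of 59 bases (74.6%), the highest of 112 pairs of forkhead probes from different genes. Bases 2 to 31 of the Foxp2 probe and the first 30 bases of the Foxp4 probe are shown with differing bases in capitals.
Foxp2: ctgtggaCgaAGTCgaataCcagaaGcgAa
Foxp4: ctgtggaTgaGCGGgaataTcagaaAcgGa

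Foxj1 was lower in the homozygous lung, by 3.78-fold (log2 ratio −1.92 ± 0.30), and it was the only member past 2-fold, beside 1.88% of all 21171 detected genes that were at least 2-fold lower. The uncorrected mean signal of its spot was 603 in the heterozygous channel, over a local background of 44.0, and 263 in the homozygous channel, over 56.0. After normalization its log2 level was 9.53 in the heterozygous and 7.61 in the homozygous channel, and the latter is 26.4% of the former on the linear scale. One scanner error on either side gives 3.08-fold to 4.65-fold.

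The uncorrected signals show the same order before any dye correction. Red was usually the brighter channel, with a median red over green of 1.51 over the detected genes and 1.23 to 2.38 over the 9 other members. For Foxj1 the quotient was 0.437. Of all detected genes, 14.7% had less red than green signal, and Foxj1 was the only member among them.

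A Foxj1 signal remained in the homozygous channel. It was 3.35 times the median of 153 negative control spots there (78.6), and 1 of those spots was at or above it. In the heterozygous channel the Foxj1 spot was 6.87 times the median of the controls (87.8), with none at or above it. On the log2 scale the homozygous level was 1.29 above the lowest level of any probe well above background in that channel. Whether the lacZ allele deletes the stretch that this probe reads is not given in the sources used here, and a probe outside the deletion checks nothing about the genotype labels. In RNA from whole lobes, fewer Foxj1-expressing cells and less Foxj1 RNA per cell cannot be told apart.

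**Figure D1:**
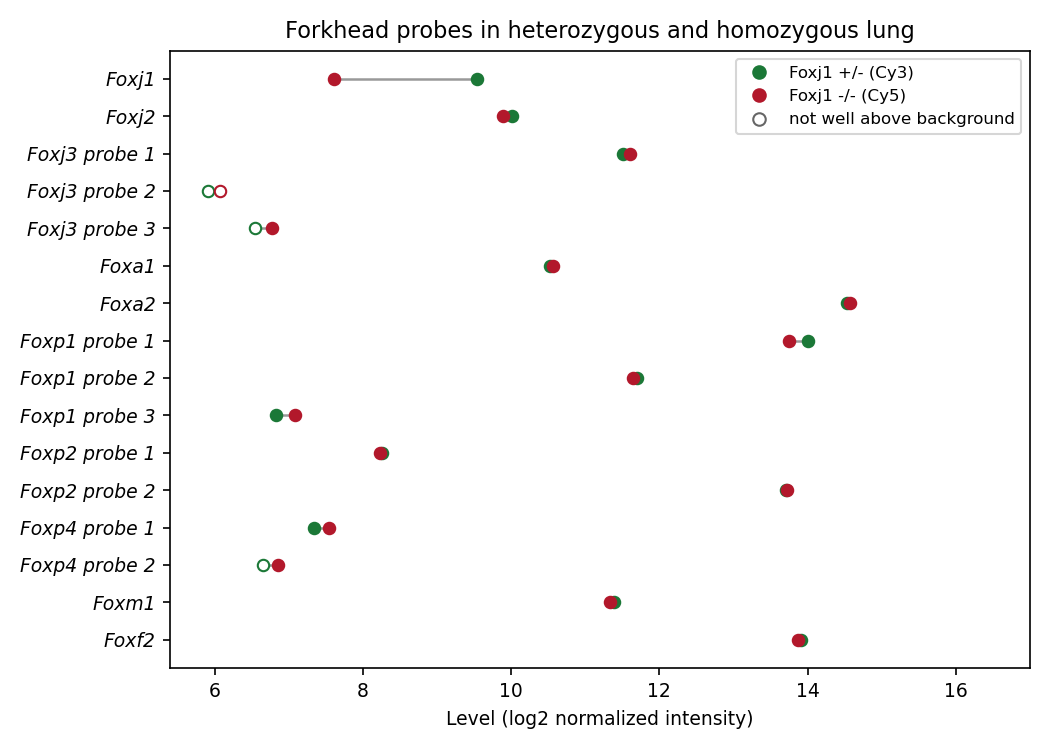
Log2 normalized intensity (horizontal axis) of the 16 forkhead probes in the heterozygous (green) and homozygous (red) channel of 1 array, joined by a line; open circles are not well above background. Probes of 1 gene are numbered from the lowest ratio to the highest. Only Foxj1, at 9.53 and 7.61, shows a wide gap between the channels.

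Among all detected genes, 0.283% (60 genes) had a ratio at or below that of Foxj1. Of the 3787 probes whose mean level was within 0.5 log2 units of that of Foxj1, 22 had a ratio at or below it, and the SD of the ratio among them was 0.46.

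The 2 relatives of Foxj1 did not show such a difference. Foxj2 stood at log2 levels of 10.01 (heterozygous) and 9.89 (homozygous), a ratio of −0.12 ± 0.20. The brightest of the 3 Foxj3 probes read 11.51 and 11.60, a ratio of 0.10 ± 0.20. Another Foxj3 probe passed background in the homozygous channel alone, at 6.77 against 6.54. Its bound under the main processing was 1.11-fold higher there, less than its scanner error of 0.46 on the log2 scale. With median centring the ratio of this probe was −0.09, so no direction is given. The remaining Foxj3 probe, at 5.91 and 6.07, was below background in both. The ratio of Foxj3, as the median of its 2 used probes, was 0.16 ± 0.33.

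Under the main processing, the endodermal factors Foxa1 and Foxa2 were alike in both lungs to within the scanner error. Foxa1 had log2 levels of 10.52 and 10.57, a ratio of 0.04 ± 0.20. The Foxa2 probe was printed in 10 spots. Its heterozygous level ran from 14.35 through a median of 14.57 to 14.67, and its homozygous level from 14.38 through 14.60 to 14.70. The ranges of the 2 channels overlapped almost entirely. The 10 ratios ran from −0.0079 to 0.080, with 1 below 0, and their mean was 0.04 ± 0.03 (SD over 10 spots of 1 array). This spread is of repeated spots and says nothing of other animals. Over 214 probes with repeated spots the median SD of the ratio was 0.05, and the 7144 genes read by several probes had a median SD of 0.16 between these. With median centring the ratios of Foxa1 and Foxa2 were 0.56 and 0.82, beyond the scanner error. The median of all genes was 0.22 under that setting.

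Of the repressors, Foxp1 had 3 probes that did not give the same ratio. Foxp1 probe 1, the brightest of them, stood at levels of 14.00 and 13.75 (−0.25 ± 0.21), and the intron-spanning probe 2 at 11.70 and 11.65 (−0.05 ± 0.20). The dim probe 3 stood at 6.82 and 7.08 (0.26 ± 0.31). Probes 1 and 3 differed by 0.51, more than their combined scanner error of 0.37, and this was the only one of 6 such pairs of probes within a member that did. With median centring of the array instead of loess the difference was −0.42, in the opposite direction. Only probe 2 is assigned in the files to a curated reference transcript, and probes 1 and 3 to cDNA records. The median of the 3, −0.05 ± 0.21, is the value of the gene.

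Foxp2 had levels of 8.26 and 8.23 at its intron-spanning probe (−0.03 ± 0.21). Its other probe, at chr6:15389279-15389338, read 13.72 in both channels (0.0029 ± 0.20). Foxp4 probe 1 stood at 7.34 and 7.54 (0.20 ± 0.24). The intron-spanning probe of Foxp4 passed background in the homozygous channel alone, at 6.86 against 6.65. Its bound, 1.16-fold higher there, is the same as its own ratio (0.21 ± 0.37) and less than the scanner error. With median centring the ratio of this probe was −0.08, so no direction is given. Since this probe and that of Foxp2 are alike at 44 of 59 bases, signal shared between the transcripts cannot be separated for this pair. The 2 probes of Foxp2 differed by 0.03 and those of Foxp4 by 0.01. With median centring these differences were 0.54 for Foxp2 and −0.22 for Foxp4, −0.75 for the Foxj3 probes and −0.48 for Foxp1 probes 2 and 3. Under that setting 4 of the 6 pairs within a member, all but those of Foxp4 and of Foxp1 probes 1 and 2, differed by more than their combined scanner error.

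Foxm1, the regulator of mitotic genes, had levels of 11.39 and 11.34 (−0.05 ± 0.20). The mesenchymal factor Foxf2 had levels of 13.92 and 13.87 (−0.05 ± 0.20). Both differences are smaller than the scanner error under the main processing. With median centring the ratios were 0.51 for Foxm1 and 0.65 for Foxf2, beyond that error, where the median of all genes was 0.22.

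**Figure D2:**
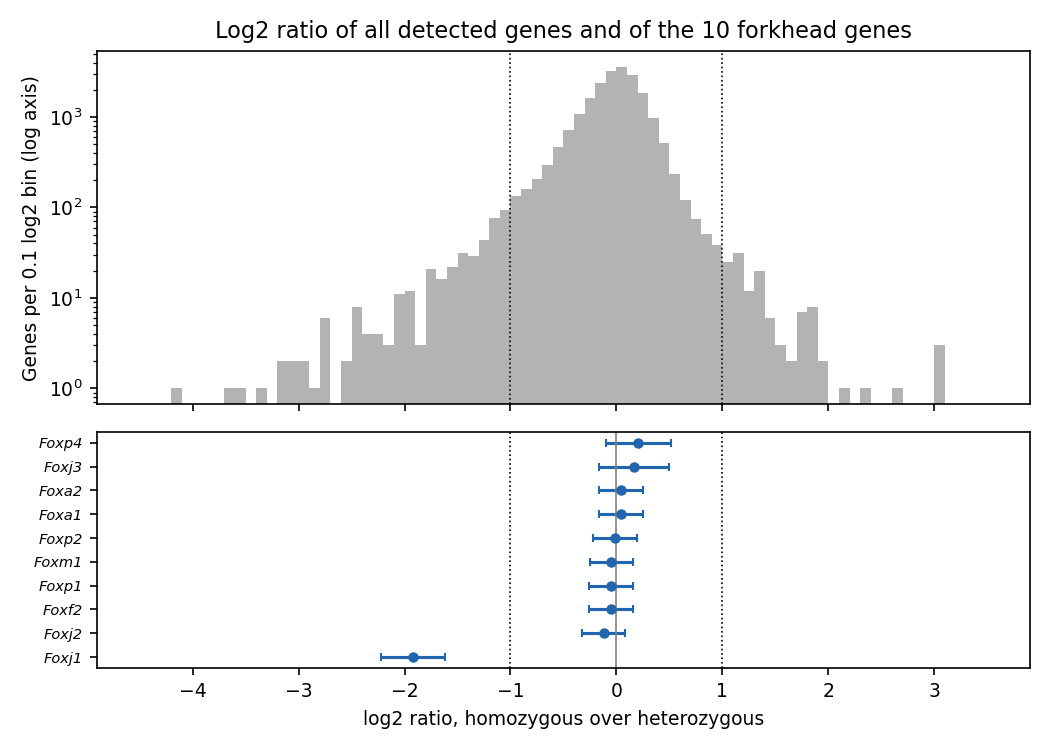
Upper panel, number of detected genes (log axis) per 0.1-wide bin of the log2 ratio of homozygous over heterozygous; lower panel, the ratio of each of the 10 forkhead genes on the same axis, with bars of 1 scanner error. Dotted lines mark 2-fold. Foxj1 lies in the lower tail at −1.92 and the 9 others between −0.12 and 0.21.

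In order of their ratios the genes were Foxj1, Foxj2, Foxf2, Foxp1, Foxm1, Foxp2, Foxa1, Foxa2, Foxj3 and Foxp4. Foxj1 and the next gene, Foxj2, were 1.80 apart, against a combined scanner error of 0.36. Among the 9 others, none of the 36 pairs differed by more than its combined error, so their order carries no information. Under the main processing their ratios ran from −0.12 (Foxj2) to 0.21 ± 0.31 (Foxp4), at most 1.15-fold. All 9 were then within their own scanner error of 0. Of the 10 genes, 1 was at least 2-fold lower, beside 1.88% of all detected genes, and 0 were 2-fold higher, beside 0.576%. By probes, 1 of the 15 used was at least 2-fold lower, beside 1.75% of all used probes, and 0 were higher, beside 0.646%. The ratio was below 0 in 6 of the 10, beside 50.4% of all detected genes. The median of the 10 was −0.03, beside a median of −0.0027 over all detected genes.

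The processing moved the ratios of all 10 and the gap between Foxj1 and the others, and Foxj1 remained the lowest. It was 2-fold lower or more in each of 9 settings, the main one included, from 3.16-fold with median centring to 5.03-fold with the scanner software's log ratio. Several of the settings could not change the Foxj1 value, since it has 1 probe with 1 spot that passed every filter. Foxj1 lay 1.67 to 2.22 below the next member in all 9. Median centring also moved the median of all genes, to 0.22, and relative to that Foxj1 stood at −1.88 and the other members between −0.19 and 0.60. Foxj3, Foxa1, Foxa2 and Foxp4 were above 0 in all 9 settings. Foxj2, Foxm1 and Foxf2 were below 0 in 8 of 9, Foxp1 in 6 and Foxp2 in 5, and median centring put all 5 above 0. No direction is therefore given for these 9 genes.

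**Figure D3:**
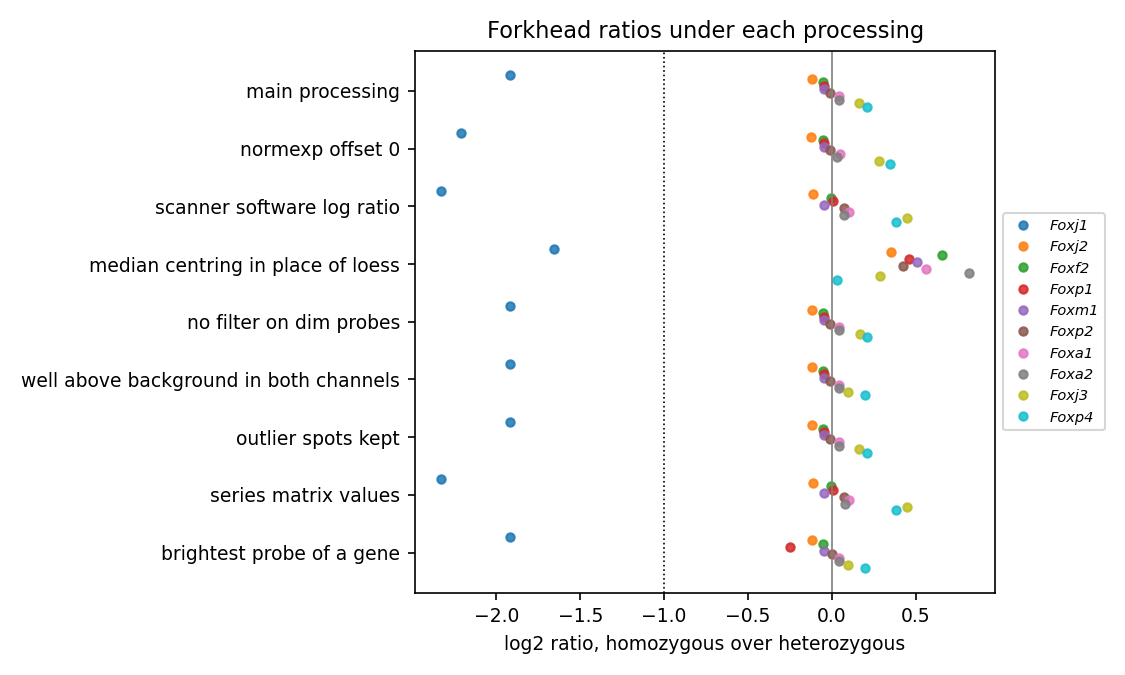
Log2 ratio of homozygous over heterozygous (horizontal axis) of each forkhead gene under the main processing and 8 alternatives (rows); points are shifted slightly in height by gene. Foxj1 stays below the dotted 2-fold line in every row, and with median centring the other genes lie between 0.03 and 0.82, 8 of them higher than in the main processing and Foxp4 lower.

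Other forkhead genes gave a similar picture by the 2-fold rule only. Of 34 listed, 30 were matched to a probe and 24 passed the filter on dim probes, 18 of these being measured in both channels. None of the 24 was past 2-fold in either direction. Their ratios ran from −0.46 to 0.39 with a median of 0.04, and 12 were below 0. This range is wider than that of the 9 other members. Several of these genes lay further from 0 than their own scanner error, which none of those 9 did. Among the lowest were Foxc2, a factor of lymphatic vessel development (−0.46 ± 0.21), and Foxn3 (−0.30 ± 0.21). The highest were Foxo3, a mediator of insulin signalling (0.39 ± 0.25), Foxa3 (0.31 ± 0.24) and Foxf1, the mesenchymal partner of Foxf2 (0.26 ± 0.21). By the scanner software's log ratio Foxn2 (1.05) was at least 2-fold higher, beside 593 of all 21171 detected genes. The forkhead genes Foxb1, Foxb2, Foxd4, Foxe1, Foxi1 and Foxp3, the regulator of T cells, were below background in both channels.

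None of the measured genes known to act upstream of or beside Foxj1 was past 2-fold either. Of 16 listed, 13 were measured, 12 of them in both channels, with ratios from −0.37 to 0.42 and a median of −0.09. Mcidas, Gmnc and Noto were not matched to a probe, so the array gives no value for them. Lowest were Ccno, needed for centriole amplification (−0.37 ± 0.21), and the Notch ligand Jag2 (−0.35 ± 0.21). Highest were Tfdp1, the partner of E2F factors (0.42 ± 0.21), and Gli3, a hedgehog effector (0.21 ± 0.21). With median centring the median was 0.14, or −0.083 relative to that of all genes (0.22). Under that setting 1 gene was at least 2-fold higher, beside 724 of all 21171 detected genes.

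Genes of the motile cilium, which Foxj1 is known to switch on, were lower. Of 20 listed, 18 were measured and 12 were 2-fold lower or more, beside 1.88% of all detected genes. None was higher by 2-fold, beside 0.576%, and the median was −1.29. The list is a selection made with earlier results of these data known. Meig1, of the sperm flagellum (−3.01 ± 0.36), and the dynein light chain Dynlrb2 (−2.80 ± 0.33) were the lowest, and Dnah11, an outer arm dynein heavy chain (−0.35 ± 0.21), and Mns1 (0.34 ± 0.21) the highest. Foxj1 stood within their range, below 11 and above 7 of them. The count at least 2-fold lower was 7 with median centring, beside 302 of all 21171 detected genes. Their median was −0.89 there, or −1.11 relative to that of all genes (0.22).

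For the other members, the lists of genes they are known to regulate or work with gave medians on both sides of 0, from −0.37 to 0.20. With median centring all 4 medians were above 0, at 0.18 for Foxa, 0.63 for Foxm1, 0.46 for Foxp and 0.35 for Foxf. That setting put the median of all genes at 0.22. Relative to it the 4 lists stood at −0.045, 0.41, 0.24 and 0.13, in the same order. Of 13 genes bound or regulated by Foxa factors in lung epithelium, 5 were 2-fold lower or more, beside 1.88% of all detected genes. None of the 13 was 2-fold higher, beside 0.576%, and their median was −0.37. With median centring 1 of them was 2-fold higher, beside 724 of all 21171 detected genes. The 5 were the secretoglobins Scgb3a1 (−3.19 ± 0.38) and Scgb1a1 (−2.47 ± 0.31) and genes for surfactant proteins, Sftpb (−1.72 ± 0.26), Sftpd (−1.56 ± 0.26) and Sftpa1 (−1.54 ± 0.25). The highest were Sftpc (0.33 ± 0.21) and the airway factor Sox2 (0.27 ± 0.21). Under the main processing Foxa1 and Foxa2, with ratios of 0.04 each, differed by less than their scanner error between the same lungs.

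None of the 12 mitotic targets of Foxm1 was past 2-fold. Their median was 0.03, from the kinesin Kif20a (−0.28 ± 0.21) and the phosphatase Cdc25b (−0.13 ± 0.21) up to Skp2 (0.42 ± 0.21) and Cks1b (0.58 ± 0.21), both of the ubiquitin ligase that degrades p27. With median centring 3 of the 12 were at least 2-fold higher, beside 724 of all 21171 detected genes. Of 18 targets and corepressors of Foxp factors, 2 were at least 2-fold lower, beside 1.88% of all detected genes. These were Scgb1a1 and the mucin chaperone Agr2 (−1.50 ± 0.26). With median centring 3 of the 18 were at least 2-fold higher, beside the same 724 genes of the array. The median was 0.20, and the highest were Mta1 (0.44 ± 0.21) and Hdac2 (0.35 ± 0.21), both parts of a chromatin-remodelling corepressor. Of 13 listed mesenchymal and hedgehog genes around Foxf factors, 12 were measured and none was past 2-fold. The median was 0.13, from the mesenchymal ligand Wnt2 (−0.60 ± 0.21) and the receptor Pdgfra (−0.11 ± 0.26) to Gli2 (0.28 ± 0.28) and Gli1 (0.47 ± 0.26).

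**Figure D4:**
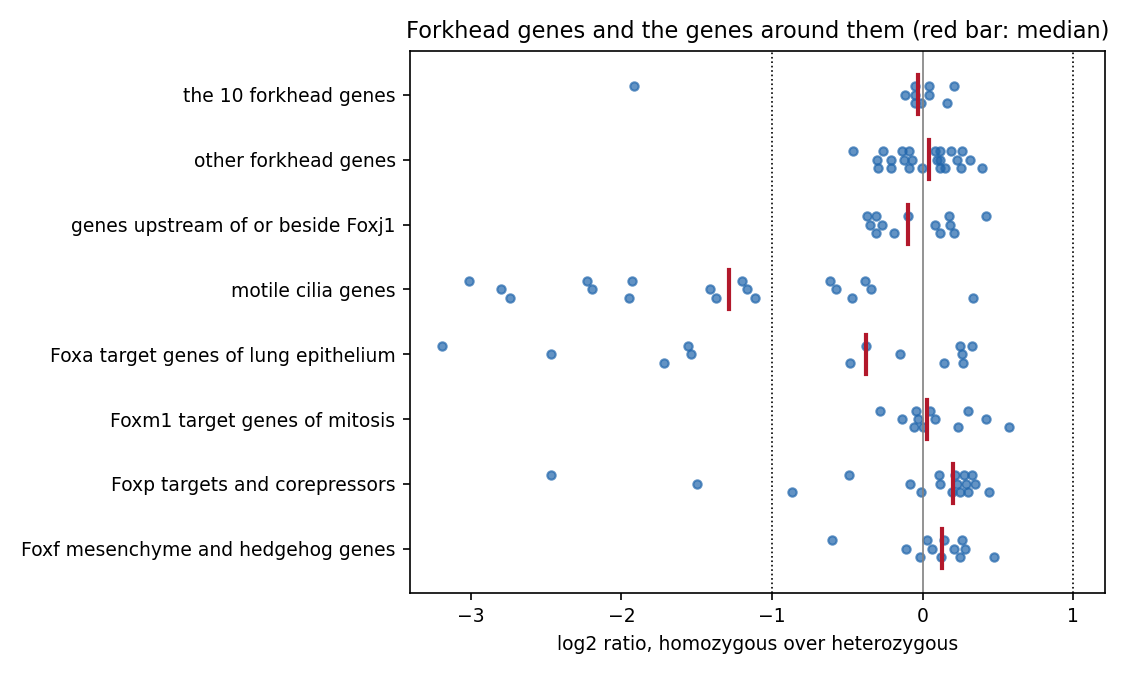
Log2 ratio of homozygous over heterozygous (horizontal axis) for each measured gene (points) of the 8 lists, with the list median as a red bar and dotted lines at 2-fold. Motile cilium genes have the lowest median, −1.29, and the upstream genes and the other forkhead genes stay within 2-fold.

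Genes next to Foxj1 on chromosome 11 were not past 2-fold. Ordered by probe position, the 3 detected genes on each side were Srp68, Galr2 and Exoc7 at lower coordinates and Rnf157, Ubald2 and Qrich2 at higher ones. The nearest, the ubiquitin ligase gene Rnf157, has its probes 6.88 kb away. Ratios ran from −0.12 ± 0.21 (Ubald2) to 0.31 ± 0.21 (Srp68, of the signal recognition particle), and Rnf157 stood at 0.15 ± 0.22.

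The genes whose ratio was nearest to that of Foxj1 were taken among genes with a reference symbol, measured in both channels, whose probes shared 1 sign. This is a likeness over only the 2 channels of 1 array. Just below Foxj1 were Myl4, an atrial myosin light chain (−1.94), Cfap52 of the ciliary axoneme (−1.93) and Iqcg of the nexin-dynein regulatory complex (−1.93). Just above it were Trim12a (−1.92), BC064078 (−1.87) and the ribosomal protein gene Rpl14 (−1.87). Such a match in 1 ratio is a description only. The 2 probes of Trim12a differed, at −2.38 and −1.45.

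Every matched gene of 10 marker lists for cells the lobes could hold was measured in both channels, and only Hbb-b1 of the erythroid list was unmatched. Of the multiciliated cell markers all 6 were at least 2-fold lower, beside 1.88% of all detected genes. Their summed level was 19777 in the heterozygous and 4751 in the homozygous channel, and Rsph1 (−1.17 ± 0.24) was the highest. All 6 also belong to the motile cilium list above, so their values repeat it. The genes of that list that were not past 2-fold are not among these markers. With median centring 3 of the 6 were at least 2-fold lower, beside 302 of all 21171 detected genes. Under the main processing the airway secretory and cardiac muscle markers all had ratios below 0 as well. Each of the other lists held ratios on both sides of 0. Of 5 airway secretory markers 4 were at least 2-fold lower, with summed levels of 206162 and 80295 (2 with median centring), and of 5 cardiac muscle markers 4 were, with summed levels of 39378 and 13770, the atrial myosin light chain Myl7 lowest (−3.52 ± 0.39) and Actc1 highest (−0.07 ± 0.20). Of 4 erythroid markers 1 was, with summed levels of 217881 and 204345. Of 5 distal epithelial markers 2 were (Sftpb and Sftpd), with summed levels of 195702 and 228954. The 7 general epithelial markers had none past 2-fold and a median of −0.15, with summed levels of 168894 and 147849. None of the markers of mesenchyme, endothelium, leukocytes or proliferating cells was past 2-fold, with medians of 0.07, −0.09, 0.22 and −0.02. With median centring the medians were 0.71 for mesenchyme, 0.42 for endothelium, 0.51 for leukocytes, 0.52 for proliferating cells, 0.52 for general epithelium and 0.18 for distal epithelium. Relative to the median of all genes under that setting, 0.22, these were 0.49, 0.20, 0.29, 0.30, 0.30 and −0.045, in the same order. At least 2-fold higher there were 2 general epithelial markers and 1 marker each of mesenchyme, proliferating cells, distal epithelium and erythroid cells. Of all 21171 detected genes 724 were. By the scanner software's log ratio 1 leukocyte marker was at least 2-fold higher, beside 593 of all 21171 detected genes. The part of cell makeup and of the dissected tissue in the Foxj1 ratio was not tested.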

How the data were processed

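RNA (100 ng per embryo, 1 round of amplification) from 2 samples was hybridised to 1 two-colour Agilent array, per the labels' protocols. The 2 deposited scanner files are identical, so 1 was used. Spot and local background brightness were deposited as intensity on a linear scale, produced with Agilent Feature Extraction 9.5.3.1 per the submitters' processing notes. Per the file headers, the scanner software's own log ratio is on the log10 scale, red over green. The deposited series matrix holds processed intensity times 1.68 with a floor of 15, as found by comparison (SD of the log2 factor 0.0038 and 0.0025 for the matching channels, 0.59 for the opposite ones). Its medians are 139.8 (heterozygous) and 138.8 (homozygous). The reason for the factor is unknown.

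Mean signals were background-corrected by normexp (offset 50) and loess-normalized in limma 3.58.1 (R 4.3.3), with control spots at weight 0. The procedure was tested on simulated data, where only bright probes were checked, so dim ones remain untested. The offset makes the ratios of dim probes smaller. Of 43379 spots, 169 outliers were left out, none of them of a forkhead probe, and 0 were saturated. Further, 69.0% of spots were well above background in the heterozygous and 75.6% in the homozygous channel. Spots of a probe were averaged. Probes were used where, in either channel, a share above 0.5 of the spots was well above background, and the median of the used probes is the value of a gene. Names came from the RefSeq gene table of GRCm38.p6 by accession (24372 probes), symbol (6300) or synonym (2425), or from the file (8070). Coordinates, as the files give them, are on mm8.

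For a probe measured in 1 channel a bound is given, against whichever is higher in the other channel: the probe itself or the dimmest probe well above background. This is open to dye bias. Members and lists were chosen with earlier results of these data known. Named genes were all members, the 3 lowest and 3 highest other forkhead genes, the 2 lowest and 2 highest of each gene list, and the 3 nearest genes on each side of Foxj1 by position and by ratio. One gene that this rule names is not reported here. The other genes past 2-fold in the Foxa list were named after their values were seen. The 8 alternatives are those of the last section. The number of arrays limits the precision.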

Additional observations from a re-analysis of the deposited data

How the results depend on the processing

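With 1 sample per group, no replicate could be left out. No paired analysis was possible because each group has 1 sample and no ratio was tested. Foxj1 stayed 2-fold lower or more under all 8 alternatives. It was unchanged at −1.92 with dim probes kept, with both channels required, with outlier spots kept and with the brightest probe of a gene. These settings could not move it, because its 1 probe has 1 spot that passed every filter. The Foxj1 ratio was −2.21 with an offset of 0 and −1.66 with median centring. It was −2.33 both by the scanner software's log ratio and by the series matrix, which share their processed signals. The count of members 2-fold lower was 1, and that of members 2-fold higher 0, in every setting run. The median of the 10 members was 0.44 with median centring, where that of all genes was 0.22. Of 72 ratios of the other members under alternatives, 65 stayed within the scanner error of the main value, and the 7 that did not were all with median centring. For members with 1 probe, the settings on dim probes, required channels, outlier spots and the brightest probe could not move the ratio. Part of the 65 was therefore fixed in advance. The number of detected genes at least 2-fold lower, 398 in the main processing, was 773 with offset 0, 1143 by the scanner software's log ratio and 1139 by the series matrix. The number at least 2-fold higher, 122 in the main processing, was 221, 593 and 457 under the same settings and 724 with median centring. Among values of single genes and lists, 433 stayed and 47 moved, most of them with median centring, and the cause was not tested. Among the Foxj1 ratio, the member counts and median and the counts over all genes, 38 stayed and 10 moved. The Foxj1 ratio moved by the scanner software's log ratio and by the series matrix. Signal over background limits what can be read for Foxj3 and Foxp4, each with a probe measured in 1 channel only. Foxj1 rests on 1 spot.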
